A study of Mus musculus with 19 samples.

Results

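Genes of amino acid transport, serine synthesis, one-carbon metabolism, polyamine synthesis and mTORC1 signalling were followed in mouse CD4+ T cells of 6 groups on 19 Affymetrix arrays. The list held 40 genes: 9 amino acid transporters, 7 genes of the ATF4 response to amino acid shortage, 9 of serine and one-carbon metabolism, 5 of transamination, 5 of polyamine and methionine metabolism, and 5 of the mTORC1 pathway. Each gene was read from the probe set with the highest mean over the 19 arrays among those annotated with its symbol alone, and genes below log2 4 on all but 1 or on all arrays were left out. Of the 40 genes, 37 had such a probe set and 35 were kept, among 9928 kept of 18193 genes on the array. All values are log2 expression values, on a scale whose floor lies near log2 2.

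Chac1, a glutathione-degrading enzyme of the ATF4 response, ran from 2.0 to 2.16 over the 19 arrays, and Aldh1l2, a mitochondrial folate enzyme, from 2.07 to 2.2, so both were left out by the filter. Sms, spermine synthase, was annotated only on 3 probe sets shared with the pseudogene Sms-ps, and Amd1 and Mat2a were not analysed here because no probe set was assigned to them. Of the 35 kept genes, 30 reached log2 4 on every array. Bcat1 did so on 17 arrays, Sesn2 on 16, Asns on 13, Trib3 on 7 and Slc43a1, the gene nearest to the filter, on 5. The probe sets of Slc38a1, Trib3, Phgdh, Shmt2 and Odc1 are of the kinds (_s_at or _x_at) that can also bind transcripts of related genes, so their values are less certain.

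All mice were C57BL/6J. The immunized groups were described as CD4+ T cells from OT-II mice with 1 Bcl6yfp reporter allele (Bcl6yfp/+). OT-II mice carry a transgenic receptor for an ovalbumin peptide. The cells were moved into congenic recipients that then received NP-OVA (hapten-coupled ovalbumin) in CFA (complete Freund's adjuvant) under the skin. Draining lymph nodes were taken at day 7 or day 10. CXCR5hi PD-1hi cells, the surface phenotype of follicular helper T (Tfh) cells, were sorted by the Bcl6yfp reporter into YFP-positive (4 arrays, of which replicates 1, 2 and 3 were from day 7 and replicate 4 from day 10) and YFP-negative cells (4 arrays, replicates 2 and 3 from day 7 and replicates 1 and 4 from day 10). CXCR5lo PD-1lo cells of day 7 (3 arrays) came from the same kind of transfer. Further CXCR5hi PD-1hi cells, whose labels name no reporter sort, were again of Bcl6yfp/+ genotype (3 arrays, all day 7) or of Bcl6+/+ genotype (3 arrays, replicates 1 and 2 from day 10 and replicate 3 from day 7). Naive cells (2 arrays) were CD4+ CD44lo CD62Lhi cells sorted from spleens of mice that had not been immunized. The labels give 1 protocol text for all samples, which may not describe the naive or the Bcl6+/+ cells. Nothing in them states that replicates were separate animals, and a p-value here covers the spread among these samples alone, part of which may be technical.

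The median value of an array lay between 2.4 and 2.99, with 40.9% to 46.6% of its probe sets at log2 4 or above. The arrays fell into 7 sets that shared a value distribution. Arrays of both reporter groups and CXCR5lo PD-1lo cells with the same replicate number formed sets 1, 2 and 3, set 4 held both replicates 4 with naive replicate 1, set 5 Bcl6yfp/+ replicate 1 with naive replicate 2, set 6 replicates 2 and 3 of both genotypes, and set 7 Bcl6+/+ replicate 1 alone. The transcripts of CXCR5 and PD-1 followed the labels. Cxcr5 lay between 12.92 and 14.05 on the arrays of CXCR5hi PD-1hi cells and between 9.45 and 10.89 in CXCR5lo PD-1lo cells, against 2.26 and 2.39 in naive cells. Bcl6 was 13.66, 14.34 and 14.45 in Bcl6yfp/+ cells, against 14.39, 14.23 and 14.42 in Bcl6+/+ cells. Between the groups sorted by the reporter it overlapped, at 14.08, 14.19, 14.16 and 14.62 in YFP-positive and 13.79, 14.0, 13.7 and 14.14 in YFP-negative cells. Within each replicate number Bcl6 read higher on the YFP-positive array, although replicates 1 set day 7 against day 10. In the fit without a replicate block, none of the 10 kept helper T cell markers, Bcl6 among them, was called between these 2 groups (0.121% of all genes were). Of 10 B cell markers, 8 stayed under log2 4 on every array, as did 3 of 9 plasma cell, 9 of 18 myeloid and 3 of 6 CD8 T and NK cell markers. YFP-negative replicate 1 stood apart, with the granulocyte gene S100a8 at 10.32, against at most 2.28 on the other arrays, and the antibody joining chain gene Jchain at 12.42. The myeloid marker Lyz2 was 10.98 on that array, but also 6.73 in YFP-positive replicate 1 and 6.76 in CXCR5lo PD-1lo replicate 1. It lay between 2.22 and 5.62 on the remaining arrays. Lyz1 read 11.46, 8.6 and 8.02 on the same 3 arrays. The number of arrays limits the precision.

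T cells that leave the resting state take up more amino acids and make serine, one-carbon units and polyamines for nucleotides, methylation and growth. Leucine and other amino acids activate the kinase complex mTORC1, while a shortage of amino acids leads, through the kinase GCN2, to translation of the transcription factor ATF4, which turns on amino acid transporters, asparagine synthetase and the serine pathway. ATF4 binds as a dimer with C/EBP proteins to a composite element known as CARE, and MYC binds E-boxes in the promoters of many growth genes.

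The 300 bases around the start of transcription (250 before and 50 from the start on) were taken from RefSeq (GRCm38.p6) for 35 of the 40 genes, in 42 windows. The CARE letters TGATGNAA, on either strand, occurred in the windows of 5 of these 35 genes (Chac1, Trib3, Asns, Slc1a4 and Got1). Of all 27025 genes with a window 4.51% held them, and of all 32851 windows 3.97%. The E-box CACGTG, which reads the same on both strands, occurred for 3 of the 35 genes (Slc43a1, Rheb and Sms), for 8.09% of all genes with a window and in 7.15% of all windows. A match is a description of the letters and not a site. Shown are the windows of the genes that held a match and were called in the unblocked fits below: Asns and Rheb against naive cells, and Slc1a4 with day, the last added after its values were seen. Capitals mark the match, which begins 23 bases before the start in Asns (chr6:7693160-7693459, minus strand), 96 before it in Rheb (chr5:24842312-24842611, minus strand) and 4 before it in Slc1a4 (chr11:20332664-20332963, minus strand, where the reverse complement TTNCATCA is met).
Asns: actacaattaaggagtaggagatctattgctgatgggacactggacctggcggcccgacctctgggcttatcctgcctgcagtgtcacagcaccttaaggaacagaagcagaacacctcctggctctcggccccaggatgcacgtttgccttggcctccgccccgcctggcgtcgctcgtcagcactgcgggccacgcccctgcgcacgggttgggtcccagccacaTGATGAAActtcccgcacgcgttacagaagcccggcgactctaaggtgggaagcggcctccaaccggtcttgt
Rheb: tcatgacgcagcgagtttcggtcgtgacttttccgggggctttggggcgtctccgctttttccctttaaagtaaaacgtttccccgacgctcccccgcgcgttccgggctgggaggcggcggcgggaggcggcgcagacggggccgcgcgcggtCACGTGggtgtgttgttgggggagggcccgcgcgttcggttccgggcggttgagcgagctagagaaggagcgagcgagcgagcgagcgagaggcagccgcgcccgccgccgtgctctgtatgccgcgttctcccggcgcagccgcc
Slc1a4: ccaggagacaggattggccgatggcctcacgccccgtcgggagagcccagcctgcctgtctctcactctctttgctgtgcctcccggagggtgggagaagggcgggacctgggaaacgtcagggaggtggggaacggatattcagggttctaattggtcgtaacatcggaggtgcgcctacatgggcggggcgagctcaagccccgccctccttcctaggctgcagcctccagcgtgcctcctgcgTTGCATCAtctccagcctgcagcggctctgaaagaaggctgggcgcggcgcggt

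**Figure D1:**
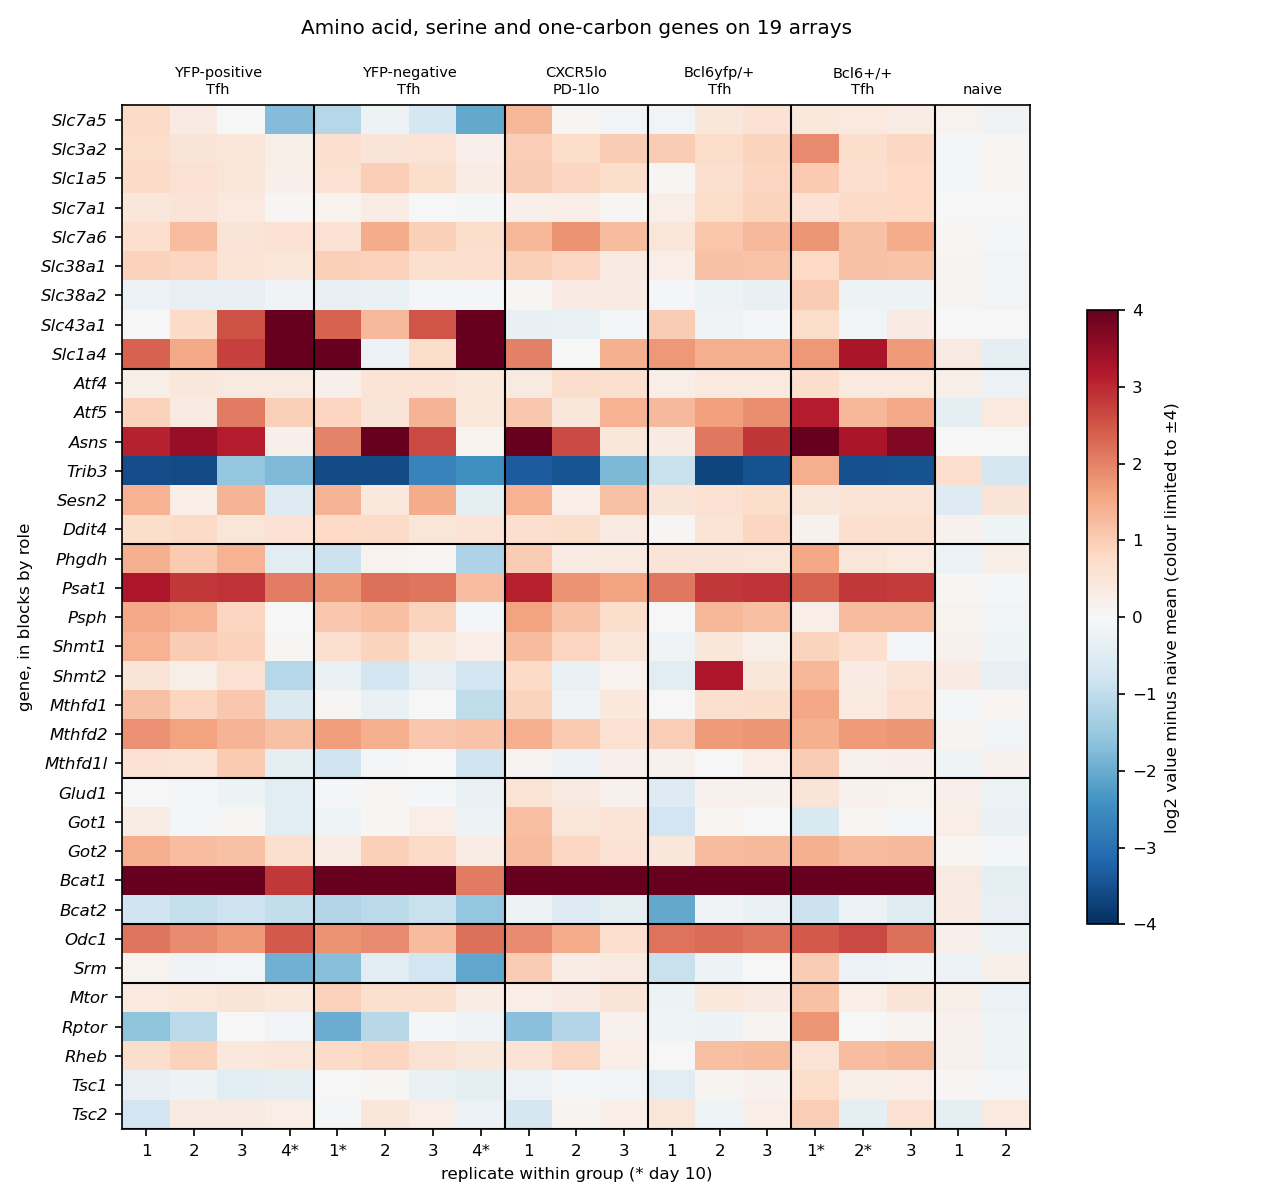
Colour map of the 35 kept genes (vertical, in blocks by role) on the 19 arrays (horizontal, by group and replicate, asterisk for day 10), coloured by the log2 value minus the mean of the 2 naive arrays, limited to 4 in either direction. Bcat1, Psat1, Mthfd2 and Odc1 are red on all 17 arrays of immunized mice, and Trib3 is blue on 16 of them.

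The first question was which of these genes differ between antigen-experienced and naive CD4+ T cells. Bcat1, the cytosolic branched-chain aminotransferase, Psat1, the middle enzyme of serine synthesis, Mthfd2, the mitochondrial methylenetetrahydrofolate dehydrogenase, and Odc1, ornithine decarboxylase, the entry step of polyamine synthesis, were higher than in naive cells in all 5 immunized groups. The call was an adjusted p under 0.05 in limma's fit over all 9928 genes. Bcat1 reached log2 4 on immunized arrays only, so its calls are no independent result. Of the 35 genes, 5 rose and 0 fell in YFP-positive cells, where 28.8% of all genes were called and 22.4% rose. In YFP-negative cells 6 rose and 1 fell (21.1% of all genes called, 16.5% higher and 4.62% lower). In CXCR5lo PD-1lo cells 6 rose (11.9% of all genes called, 10.3% higher), in Bcl6yfp/+ cells 9 (20.5% called, 15.4% higher) and in Bcl6+/+ cells 13 (35.9% called, 31.5% higher). Genes whose immunized arrays all lay above both naive arrays numbered 15 of 35 in YFP-positive (38.3% of all genes), 16 in YFP-negative (37.0%), 21 in CXCR5lo PD-1lo (48.0%), 15 in Bcl6yfp/+ (26.5%) and 24 in Bcl6+/+ cells (55.4%). Set against all genes, the 35 genes held a smaller share of upward calls in YFP-positive cells, a like share in YFP-negative cells and a larger one in the other groups, and their non-overlap shares were above those of all genes in all 5 groups. The 5 comparisons share the same 2 naive arrays, and 21 of the 35 genes were called in none of them by this fit. In bulk samples, fewer cells of a type and less RNA per cell cannot be told apart.

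The whole scale was shifted against the naive arrays. The median difference of all genes was 0.39 in YFP-positive, 0.38 in YFP-negative, 0.46 in CXCR5lo PD-1lo, 0.37 in Bcl6yfp/+ and 0.64 in Bcl6+/+ cells, beside medians of the 35 genes of 0.63, 0.55, 0.57, 0.51 and 0.71. After quantile normalization of all arrays the medians of the 35 genes were 0.03, 0.07, 0.11, 0.09 and 0.04, and those of all genes lay between -0.09 and -0.05. Differences from naive cells are to be read relative to that shift. Inside set 4 and set 5, which each hold a naive array, the median of all genes was between 0 and 0.02, so the differences in those sets are given below beside the fitted ones. Each of them is 1 array minus 1 naive array. Both reporter arrays of set 4 are from day 10, so for them day and set cannot be told apart.

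**Figure D2:**
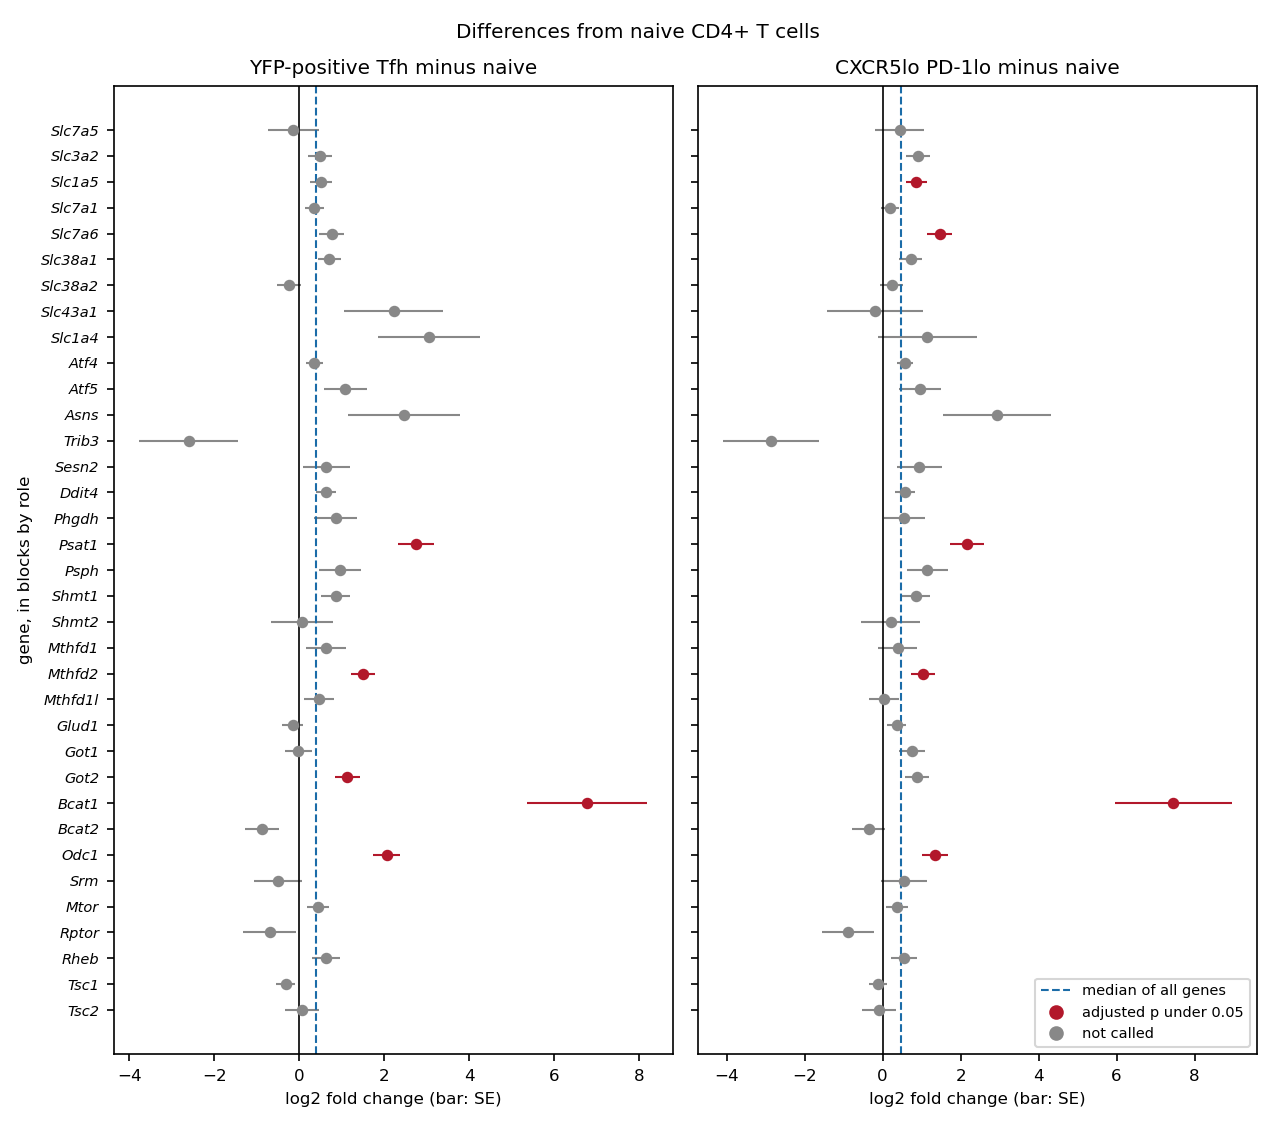
Log2 fold change (horizontal, bars are SE) of the 35 kept genes (vertical) in YFP-positive minus naive cells (left) and CXCR5lo PD-1lo minus naive cells (right), with genes past an adjusted p of 0.05 in red and the median of all genes as a dashed line. Bcat1 lies at 6.77 and 7.46, far right of the dashed lines at 0.39 and 0.46.

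Among the 9 transporters, those called in at least 1 comparison with naive cells were Slc7a6, Slc38a1, Slc3a2, Slc1a5 and Slc7a1, all higher. Slc7a6 encodes an exchanger of cationic and neutral amino acids that pairs with the heavy chain Slc3a2. It read 11.23, 11.77, 11.07 and 11.16 in YFP-positive, 11.15, 12.02, 11.49 and 11.25 in YFP-negative and 11.88, 12.33 and 11.82 in CXCR5lo PD-1lo cells. It read 11.04, 11.64 and 11.85 in Bcl6yfp/+ and 12.31, 11.73 and 12.02 in Bcl6+/+ cells, against 10.6 and 10.49 in naive cells. No array of an immunized group overlapped the naive arrays. Slc7a6 rose by 0.94 (SE 0.3, adjusted p = 0.0356 in limma) in YFP-negative, 1.46 (SE 0.32, adjusted p = 0.006) in CXCR5lo PD-1lo, 0.97 (SE 0.32, adjusted p = 0.0401) in Bcl6yfp/+ and 1.48 (SE 0.32, adjusted p = 0.00232) in Bcl6+/+ cells, while YFP-positive cells differed by 0.76 (adjusted p = 0.0679). Within sets the differences were smaller, at 0.56 in YFP-positive, 0.65 in YFP-negative and 0.55 in Bcl6yfp/+ cells, and quantile normalization left 1 of the 4 calls.

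Slc38a1, a sodium-coupled glutamine transporter, read 14.11, 14.02, 13.71 and 13.65 in YFP-positive, 14.14, 14.11, 13.8 and 13.84 in YFP-negative and 14.14, 14.01 and 13.52 in CXCR5lo PD-1lo cells. It read 13.44, 14.35 and 14.33 in Bcl6yfp/+ and 13.96, 14.35 and 14.3 in Bcl6+/+ cells, against 13.29 and 13.06 in naive cells. Every immunized array lay above the naive ones, the lowest by little. Slc38a1 rose by 0.8 (SE 0.27, adjusted p = 0.0496) in YFP-negative, 0.87 (SE 0.29, adjusted p = 0.0438) in Bcl6yfp/+ and 1.03 (SE 0.29, adjusted p = 0.0129) in Bcl6+/+ cells, and after quantile normalization it was called in 4 of the 5 comparisons. Slc3a2, the heavy chain (CD98) that brings Slc7a5 and Slc7a6 to the membrane, was 12.4, 12.09 and 12.27 in Bcl6yfp/+ cells and 13.26, 12.06 and 12.21 in Bcl6+/+ cells, against 11.28 and 11.46 in naive cells. It rose by 0.88 (SE 0.3, adjusted p = 0.0457) in Bcl6yfp/+ and by 1.14 (SE 0.3, adjusted p = 0.00831) in Bcl6+/+ cells. It read 12.1, 11.88, 11.85 and 11.62 in YFP-positive, 12.05, 11.9, 11.92 and 11.56 in YFP-negative and 12.34, 12.12 and 12.38 in CXCR5lo PD-1lo cells. These arrays did not overlap the naive ones either, and Slc3a2 had no call after quantile normalization. Slc1a5, a transporter of glutamine and other neutral amino acids, rose by 0.86 (SE 0.27, adjusted p = 0.0454) in CXCR5lo PD-1lo and by 0.85 (SE 0.27, adjusted p = 0.0229) in Bcl6+/+ cells, and Slc7a1, a carrier of arginine and lysine, rose by 0.71 (SE 0.23, adjusted p = 0.0246) in Bcl6+/+ cells. These calls of Slc1a5 and Slc7a1 were lost after quantile normalization and with the set as a block, and the difference of Slc1a5 in Bcl6+/+ cells was then -0.02.

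The remaining 4 transporters passed in none of the comparisons with naive cells. With the set as a block, Slc7a5 was called lower in 2, Slc43a1 higher in 3 and Slc1a4 higher in 2 of them, and after quantile normalization Slc7a5 was called lower in 1. Slc7a5, the light chain for leucine import, differed by between -1.03 in YFP-negative and 0.44 in CXCR5lo PD-1lo cells. Slc38a2, a glutamine transporter that ATF4 is known to induce, differed by between -0.25 and 0.23. Slc43a1, another importer of branched-chain amino acids, and Slc1a4, which carries alanine, serine and cysteine, varied widely within groups, and Slc1a4 differed from naive cells by 1.15 to 3.06. Slc43a1 read 2.11, 2.91, 4.68 and 7.71 in YFP-positive and 4.49, 3.42, 4.65 and 7.45 in YFP-negative cells. It stayed between 1.84 and 2.07 in CXCR5lo PD-1lo cells, 2.0 and 3.14 in Bcl6yfp/+ and 2.01 and 2.88 in Bcl6+/+ cells, against 2.11 and 2.16 in naive cells. The highest arrays of both reporter groups were the day 10 replicates 4. Slc43a1 reached log2 4 only on arrays of these reporter groups, so it passed the filter through them alone.

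In the ATF4 response, Asns and Atf5 passed the test in Bcl6+/+ cells and no gene of the 6 kept passed in YFP-positive, YFP-negative or CXCR5lo PD-1lo cells. Asns encodes asparagine synthetase. Its level was 5.93, 6.33, 6.0 and 3.05 in YFP-positive, 4.83, 7.12, 5.5 and 3.0 in YFP-negative and 8.6, 5.49 and 3.31 in CXCR5lo PD-1lo cells. The Bcl6yfp/+ arrays had 3.19, 4.98 and 5.72 and the Bcl6+/+ arrays 8.61, 6.11 and 6.56, against 2.89 and 2.83 in naive cells. Every immunized array lay above the naive ones, but arrays of 1 group differed by up to several log2 units, and the naive values lie near the floor. Asns reached log2 4 only on immunized arrays, so the filter kept it through them and its call is no independent result. Asns rose by 4.23 (SE 1.39, adjusted p = 0.0276) in Bcl6+/+ cells, a call kept in 2 of the 5 fits that each left out 1 array of the compared groups. The other differences, between 1.77 and 2.94, did not pass.

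Atf5, a transcription factor of the same response, was 5.73, 5.16, 6.89 and 5.77 in YFP-positive and 5.66, 5.32, 6.17 and 5.23 in YFP-negative cells. CXCR5lo PD-1lo cells had 5.88, 5.27 and 6.2, Bcl6yfp/+ cells 6.11, 6.46 and 6.66 and Bcl6+/+ cells 7.96, 6.12 and 6.32, against 4.43 and 5.18 in naive cells. Both genotype groups lay above naive cells on every array, and it rose by 1.6 (SE 0.54, adjusted p = 0.0435) in Bcl6yfp/+ and by 1.99 (SE 0.54, adjusted p = 0.00999) in Bcl6+/+ cells. Atf4 itself, at 12.68 to 13.63 over all arrays, differed from naive cells by 0.34 to 0.57 and Ddit4, an mTORC1 inhibitor at 14.09 to 15.11, by 0.48 to 0.65, with no call. With the set as a block, Atf4 was called higher in 2 and Ddit4 in 2 comparisons, and after quantile normalization Ddit4 in 2. ATF4 is controlled mainly at translation, which transcript levels do not show. Sesn2, a leucine sensor that restrains mTORC1, differed by 0.51 to 0.94 without passing.

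Trib3, a pseudokinase that limits ATF4 activity, pointed the other way. It read 2.44, 2.43, 4.44 and 4.24 in YFP-positive, 2.41, 2.42, 3.32 and 3.55 in YFP-negative and 2.66, 2.55 and 4.2 in CXCR5lo PD-1lo cells. It read 5.09, 2.32 and 2.5 in Bcl6yfp/+ and 7.44, 2.49 and 2.5 in Bcl6+/+ cells, against 6.67 and 5.32 in naive cells. Only Bcl6+/+ replicate 1, which is alone in its set, overlapped the naive arrays. The lowest arrays lie near the floor, so the size of these differences depends on it. The fitted differences, from -3.07 to -1.85, did not pass (lowest adjusted p = 0.0726 in limma). Trib3 was called lower in 4 of the 5 comparisons after quantile normalization, all but that of Bcl6+/+ cells, and in 3 with the set as a block. Without Bcl6+/+ replicate 1 and YFP-negative replicate 1, a choice made after seeing the data, Trib3 fell in all 5 comparisons, by 2.86 (adjusted p = 0.04) in CXCR5lo PD-1lo and by 3.5 (adjusted p = 0.012) in Bcl6+/+ cells. Within sets the differences were -2.43 in YFP-positive, -3.12 in YFP-negative and -0.23 in Bcl6yfp/+ cells.

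Of the 8 kept genes of serine and one-carbon metabolism, Psat1 and Mthfd2 rose in all 5 groups and the other 6 passed in none. Psat1 (phosphoserine aminotransferase) read 14.05, 13.66, 13.71 and 12.87 in YFP-positive, 12.6, 13.04, 12.96 and 12.05 in YFP-negative and 13.93, 12.61 and 12.42 in CXCR5lo PD-1lo cells. It read 12.93, 13.65 and 13.73 in Bcl6yfp/+ and 13.18, 13.65 and 13.61 in Bcl6+/+ cells, against 10.87 and 10.78 in naive cells. The lowest immunized array was thus above log2 12 and both naive arrays below 11. Psat1 rose by 2.75 (SE 0.42, adjusted p = 0.000111) in YFP-positive, 1.84 (SE 0.42, adjusted p = 0.00433) in YFP-negative, 2.16 (SE 0.44, adjusted p = 0.0038) in CXCR5lo PD-1lo, 2.61 (SE 0.44, adjusted p = 0.000407) in Bcl6yfp/+ and 2.66 (SE 0.44, adjusted p = 0.000286) in Bcl6+/+ cells. All 5 calls were kept after quantile normalization and 3 in the fit blocked by set, and inside sets the differences were 2.01, 1.18 and 2.14 in YFP-positive, YFP-negative and Bcl6yfp/+ cells.

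Mthfd2, which supplies one-carbon units in mitochondria, read 13.18, 12.97, 12.71 and 12.52 in YFP-positive, 13.01, 12.81, 12.42 and 12.5 in YFP-negative and 12.8, 12.4 and 11.97 in CXCR5lo PD-1lo cells. It read 12.34, 13.05 and 13.11 in Bcl6yfp/+ and 12.78, 13.05 and 13.11 in Bcl6+/+ cells, against 11.46 and 11.24 in naive cells. No immunized array overlapped the naive ones. The fitted rises were 1.5 (SE 0.29, adjusted p = 0.00095) in YFP-positive, 1.34 (SE 0.29, adjusted p = 0.00286) in YFP-negative, 1.04 (SE 0.3, adjusted p = 0.0345) in CXCR5lo PD-1lo, 1.49 (SE 0.3, adjusted p = 0.0021) in Bcl6yfp/+ and 1.63 (SE 0.3, adjusted p = 0.00078) in Bcl6+/+ cells. All 5 held after quantile normalization and with the set as a block; leaving out single arrays, the call in CXCR5lo PD-1lo cells was kept in 1 of 5 fits.

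The other serine and one-carbon genes had no call against naive cells, apart from Mthfd1, called lower in 1 comparison with the set as a block. Phgdh, the entry enzyme of serine synthesis, differed by between -0.49 in YFP-negative and 0.85 in YFP-positive cells, and Psph, its last enzyme, by 0.78 to 1.15. The serine hydroxymethyltransferases Shmt1, of the cytosol, and Shmt2, of the mitochondria, differed by 0.17 to 0.85 and by -0.53 to 1.08. Mthfd1 and Mthfd1l, which handle formate in the cytosol and the mitochondria, differed by -0.31 to 0.87 and by -0.41 to 0.47. The day 10 array of YFP-positive cells lay below the 3 day 7 arrays for all of these 6 genes. With day 7 and naive arrays alone, a setting added after seeing the data, 12 of the 35 genes were called in YFP-positive cells (30.5% of all genes were), and 7 of the 8 serine and one-carbon genes rose: Psat1 by 2.98, Mthfd2 by 1.6, Phgdh by 1.28, Psph by 1.26, Shmt1 by 1.11, Mthfd1 by 1.03 and Mthfd1l by 0.73 (highest adjusted p = 0.0471 in limma). The same setting called 6 of the 35 genes in YFP-negative cells (16.8% of all genes), among them Psat1 and Mthfd2 of these 8. In this setting no reporter-sorted array shares a set with a naive array. Its differences therefore hold any shift of the scale, and group and set cannot be told apart. With all arrays, Phgdh, Psph, Shmt1, Mthfd1 and Mthfd1l were not called higher with the set as a block or after quantile normalization.

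Proliferation genes differed between the groups too. The mean of 38 cell cycle genes ran from 9.62 to 12.22 over the YFP-positive, 7.23 to 10.33 over the YFP-negative, 7.84 to 10.96 over the CXCR5lo PD-1lo, 9.8 to 10.08 over the Bcl6yfp/+ and 9.9 to 10.74 over the Bcl6+/+ arrays, against 6.0 and 6.25 in naive cells. Of the 38, 34 rose in YFP-positive cells (22.4% of all genes did) and 14 in CXCR5lo PD-1lo cells (10.3%) against naive cells. Their part in the results above was not tested.

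**Figure D3:**
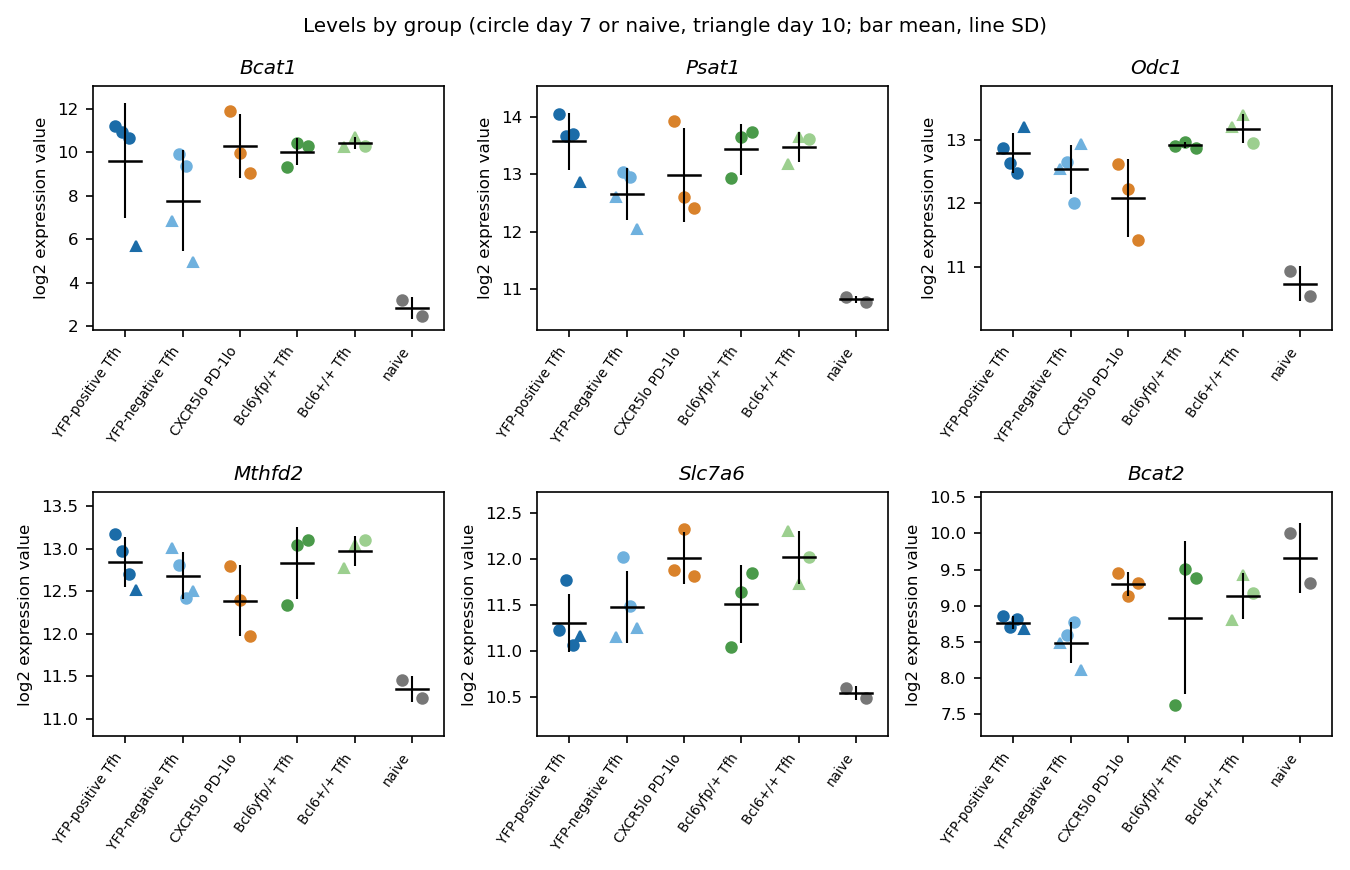
Log2 expression value (vertical) of Bcat1, Psat1, Odc1, Mthfd2, Slc7a6 and Bcat2 on each array by group (horizontal), circles for day 7 and naive and triangles for day 10, with bars for the mean and lines for the SD. In all panels but that of Bcat2 the naive points lie below every other point, and the lowest Bcat1 values of immunized mice, 5.67, 6.84 and 4.93, are day 10 arrays.

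Bcat1 showed the widest difference from naive cells. Its arrays read 11.2, 10.93, 10.66 and 5.67 in YFP-positive, 6.84, 9.94, 9.35 and 4.93 in YFP-negative and 11.92, 9.96 and 9.04 in CXCR5lo PD-1lo cells. Bcl6yfp/+ cells had 9.34, 10.45 and 10.31 and Bcl6+/+ cells 10.23, 10.72 and 10.3, against 3.21 and 2.48 in naive cells. The naive values lie near the floor, and the 3 day 10 arrays of the reporter groups lay below all other immunized arrays. Neither naive array reached log2 4, so the filter kept Bcat1 through the immunized groups alone. Its calls against naive cells are therefore no independent result. Bcat1 rose by 6.77 (SE 1.42, adjusted p = 0.00188) in YFP-positive, 4.92 (SE 1.42, adjusted p = 0.0203) in YFP-negative, 7.46 (SE 1.49, adjusted p = 0.00331) in CXCR5lo PD-1lo, 7.19 (SE 1.49, adjusted p = 0.00244) in Bcl6yfp/+ and 7.57 (SE 1.49, adjusted p = 0.00127) in Bcl6+/+ cells. All 5 calls were kept after quantile normalization and 2 with the set as a block, where the naive arrays share a set with day 10 reporter arrays: within set 4 YFP-positive cells differed by 2.46 and YFP-negative cells by 1.72, and within set 5 Bcl6yfp/+ cells differed by 6.86.

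Bcat2, the mitochondrial branched-chain aminotransferase, pointed the other way. It read 8.86, 8.71, 8.82 and 8.68 in YFP-positive, 8.49, 8.59, 8.77 and 8.11 in YFP-negative and 9.46, 9.13 and 9.31 in CXCR5lo PD-1lo cells. It read 7.62, 9.51 and 9.38 in Bcl6yfp/+ and 8.8, 9.43 and 9.17 in Bcl6+/+ cells, against 10.0 and 9.32 in naive cells. The 8 reporter-sorted Tfh arrays lay below both naive arrays and each of the other groups overlapped them. Bcat2 fell by 1.17 (SE 0.4, adjusted p = 0.0485) in YFP-negative cells, and the other differences were -0.89 in YFP-positive, -0.36 in CXCR5lo PD-1lo, -0.82 in Bcl6yfp/+ and -0.53 in Bcl6+/+ cells. After quantile normalization it was called lower in 4 of the 5 comparisons, and with the set as a block in all 5, from -1.84 to -1.01, beside within-set differences of -1.32, -1.89 and -1.7 in YFP-positive, YFP-negative and Bcl6yfp/+ cells.

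Got2, the mitochondrial aspartate aminotransferase, read 13.23, 13.01, 12.95 and 12.42 in YFP-positive, 12.08, 12.71, 12.54 and 12.08 in YFP-negative and 13.02, 12.6 and 12.34 in CXCR5lo PD-1lo cells. It read 12.23, 13.05 and 13.08 in Bcl6yfp/+ and 13.19, 13.05 and 13.06 in Bcl6+/+ cells, against 11.85 and 11.69 in naive cells. No immunized array overlapped the naive ones. It rose by 1.13 (SE 0.3, adjusted p = 0.00898) in YFP-positive, 1.02 (SE 0.31, adjusted p = 0.0298) in Bcl6yfp/+ and 1.33 (SE 0.31, adjusted p = 0.00435) in Bcl6+/+ cells, and none of these calls was kept with the set as a block. Another Got2 probe set had the opposite sign in the last 2 comparisons. Its cytosolic partner Got1 differed from naive cells by -0.22 to 0.75 and Glud1, glutamate dehydrogenase, by -0.16 to 0.36, with no call. After quantile normalization Glud1 was called lower in 3 of the comparisons and Got1 in 1, and with the set as a block Glud1 in 2.

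Odc1 read 12.86, 12.63, 12.47 and 13.19 in YFP-positive, 12.54, 12.64, 12.01 and 12.93 in YFP-negative and 12.62, 12.22 and 11.42 in CXCR5lo PD-1lo cells. It read 12.9, 12.96 and 12.87 in Bcl6yfp/+ and 13.2, 13.38 and 12.94 in Bcl6+/+ cells, against 10.93 and 10.54 in naive cells. The groups did not overlap naive cells, and the lowest immunized array, at 11.42, was one of CXCR5lo PD-1lo cells. Odc1 rose by 2.05 (SE 0.32, adjusted p = 0.000137) in YFP-positive, 1.8 (SE 0.32, adjusted p = 0.000581) in YFP-negative, 1.35 (SE 0.34, adjusted p = 0.0144) in CXCR5lo PD-1lo, 2.17 (SE 0.34, adjusted p = 0.000171) in Bcl6yfp/+ and 2.44 (SE 0.34, adjusted p = 4.52e-05) in Bcl6+/+ cells. All 5 calls held with the set as a block and 4 after quantile normalization. Srm, spermidine synthase, the next step, differed by -1.25 to 0.56 with no call, and was called lower in 1 comparison with the set as a block and in 1 after quantile normalization.

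Among the 5 mTORC1 genes, Rheb, the GTPase that activates the complex, was called in Bcl6+/+ cells, and no other gene or group was without an alternative scaling or block. Rheb read 12.05, 12.27, 11.79 and 11.85 in YFP-positive, 12.11, 12.23, 11.98 and 11.82 in YFP-negative and 11.92, 12.19 and 11.61 in CXCR5lo PD-1lo cells. It read 11.38, 12.56 and 12.61 in Bcl6yfp/+ and 11.92, 12.59 and 12.68 in Bcl6+/+ cells, against 11.53 and 11.19 in naive cells. Bcl6yfp/+ replicate 1 was the only immunized array to overlap the naive ones. The rise in Bcl6+/+ cells was 1.04 (SE 0.34, adjusted p = 0.0283), it was kept in 1 of 5 fits that each left out 1 array, and it was lost after quantile normalization. Mtor, the kinase, differed by 0.18 to 0.64, its scaffold Rptor by -0.89 to 0.62, and the inhibitors Tsc1 and Tsc2 by -0.32 to 0.41 and by -0.1 to 0.4. After quantile normalization, Tsc1 was called lower in YFP-positive (-0.83) and YFP-negative cells (-0.62) and Rptor in YFP-positive cells (-1.43), and with the set as a block Tsc1 was called lower in YFP-positive cells (-0.48). Rptor read 5.69, 6.2, 7.29 and 7.17 in YFP-positive, 5.3, 6.16, 7.21 and 7.14 in YFP-negative and 5.62, 6.12 and 7.45 in CXCR5lo PD-1lo cells, with replicate 1 the lowest in each of these groups.

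Each comparison with naive cells was refitted with 1 of its arrays left out in turn. Psat1 kept its call in every such fit of the 5 comparisons, as did Mthfd2 and Odc1 except in CXCR5lo PD-1lo cells (1 and 3 of 5 fits) and Bcat1 except in YFP-negative cells (2 of 6 fits). Got2 kept its call in 5 of 6 fits in YFP-positive and in 5 of 5 in Bcl6+/+ cells. In Bcl6yfp/+ cells Atf5, Got2, Slc38a1, Slc3a2 and Slc7a6 were each called in 1 of 5 fits. Slc38a1 and Bcat2 were called in 0 of 6 fits and Slc7a6 in 2 of 6 in YFP-negative cells, while Slc1a5 was called in 0 of 5 in CXCR5lo PD-1lo cells and in 1 of 5, like Slc7a1, in Bcl6+/+ cells. For the genes called in 0 to 2 fits, most of the single arrays, when left out, ended the call.

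Other probe sets of the called genes that reached log2 4 had the same sign in 34 of 37 values, the exceptions being 1 probe set of Slc1a5 and 1 of Got2. The other Bcat1 probe sets did not reach the minimum.

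Myc encodes a transcription factor known to drive amino acid transporters and polyamine synthesis in T cells, and is no member of the list. Its level was 6.56, 8.59, 7.41 and 6.56 in YFP-positive, 7.81, 8.31, 8.13 and 7.1 in YFP-negative and 9.58, 10.1 and 9.36 in CXCR5lo PD-1lo cells. It was 7.8, 7.29 and 7.08 in Bcl6yfp/+ and 8.82, 6.92 and 7.07 in Bcl6+/+ cells, against 9.57 and 9.93 in naive cells. All 4 CXCR5hi PD-1hi groups lay below naive cells without overlap. Myc fell by 2.47 (SE 0.57, adjusted p = 0.00394) in YFP-positive, 1.91 (SE 0.57, adjusted p = 0.0249) in YFP-negative, 2.36 (SE 0.6, adjusted p = 0.0102) in Bcl6yfp/+ and 2.14 (SE 0.6, adjusted p = 0.0126) in Bcl6+/+ cells, while CXCR5lo PD-1lo cells differed by -0.07 (adjusted p = 0.951).

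Further genes of the same pathways were counted from lists, to be read beside the 22.4% of all genes that rose in YFP-positive and the 10.3% that rose in CXCR5lo PD-1lo cells. Of all 9928 genes, 639 fell in YFP-positive and 156 in CXCR5lo PD-1lo cells against naive cells. Of 16 other amino acid carriers, 6 rose in YFP-positive cells, among them Slc25a13, the mitochondrial aspartate and glutamate carrier, by 4.48 and Slc16a10, an aromatic amino acid carrier, by 3.47, and 2 rose in CXCR5lo PD-1lo cells, Slc25a13 by 2.91 and the lysosomal exporter Slc66a1 by 1.25. Of 24 stress response and tRNA synthetase genes, 4 rose in YFP-positive cells, Gadd45a by 2.81 and Xbp1 by 1.91 the most, and 2 in CXCR5lo PD-1lo cells, Ppp1r15a, which restores translation after stress, by 2.58 and Xbp1 by 1.75. Of 17 one-carbon and purine genes, 2 rose in YFP-positive cells, Tyms, thymidylate synthase, by 4.17 and Dld by 0.86, and 1 in CXCR5lo PD-1lo cells, the folate carrier Slc19a1, by 1.35.

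Of 14 glutamine, proline and urea cycle genes, 2 rose and 2 fell in YFP-positive cells: Gpt2, mitochondrial alanine aminotransferase, rose by 4.64 and Asl by 0.96, while Ass1, which makes argininosuccinate, fell by 3.14 and Glul, glutamine synthetase, fell by 1.06. None was called in CXCR5lo PD-1lo cells, with 2 of the 14 at an unadjusted p under 0.05, where 29.8% of all genes were. Of 14 other polyamine and methionine genes, 5 rose in YFP-positive cells, Smox, spermine oxidase, by 4.07 and Azin1, the antizyme inhibitor, by 2.07 the most, and 0 in CXCR5lo PD-1lo cells, with 3 at an unadjusted p under 0.05. Of 24 further mTORC1 genes, 3 rose and 2 fell in YFP-positive cells: Tbc1d7, a partner of the TSC inhibitors, rose by 3.36 and Lamtor4, of the lysosomal anchor, by 1.58, while Rhebl1 fell by 4.01 and Sesn1, a relative of Sesn2, fell by 2.14. Sesn1 also fell by 1.11 in CXCR5lo PD-1lo cells.

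The next comparisons set the reporter-sorted Tfh cells against CXCR5lo PD-1lo cells of the same kind of transfer. Without regard to replicate number, none of the 35 genes was called between YFP-positive and CXCR5lo PD-1lo cells (10.6% of all genes were), with 6 at an unadjusted p under 0.05, where 21.7% of all genes were. Between YFP-negative and CXCR5lo PD-1lo cells, 1 was called, Srm (6.53% of all genes). Arrays of the same replicate number deviated together, and with replicate number as a block 10 genes were called in YFP-positive cells (37.2% of all genes) and 8 in YFP-negative cells (24.0%). Both comparisons share the CXCR5lo PD-1lo arrays, and the pair of YFP-negative and CXCR5lo PD-1lo replicates 1 sets day 10 against day 7.

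In that blocked fit, Mthfd2 rose in both, by 0.54 (SE 0.09, adjusted p = 0.00489) in YFP-positive and by 0.38 (SE 0.09, adjusted p = 0.0246) in YFP-negative cells. Odc1 rose by 0.57 (SE 0.16, adjusted p = 0.0327) and Slc7a1 by 0.26 (SE 0.08, adjusted p = 0.0388) in YFP-positive cells. Slc43a1 differed by 2.11 (SE 0.51, adjusted p = 0.0274 in limma) in YFP-negative cells. It reached log2 4 only on reporter-sorted arrays, so the filter kept it through the groups where it is high and its call is no independent result. Its CXCR5lo PD-1lo values, 1.84 to 2.07, lay near the floor. Slc3a2, Slc7a6, Slc38a2, Glud1 and Bcat2 fell in each of the comparisons. For Slc3a2, YFP-positive cells differed by -0.33 and YFP-negative cells by -0.33. In the same order the differences were -0.64 and -0.47 for Slc7a6, -0.52 and -0.44 for Slc38a2, -0.45 and -0.37 for Glud1, and -0.46 and -0.73 for Bcat2. Their adjusted p-values in limma lay between 0.00533 and 0.0288. Other probe sets of the genes called in the blocked fit had the same sign in 12 of 14 values; the exceptions were those of Slc38a2 in YFP-negative cells, of which one was higher by 0.26 and the other lay close to no difference. Atf4 fell by 0.23 (adjusted p = 0.0443) and Got1 by 0.68 (adjusted p = 0.0366) in YFP-positive cells.

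Per replicate number, Mthfd2 was higher by 0.37, 0.58 and 0.73 in YFP-positive and by 0.21, 0.41 and 0.45 in YFP-negative cells. Slc7a6 differed by -0.65, -0.56 and -0.75 in YFP-positive and by -0.72, -0.3 and -0.33 in YFP-negative cells. Every pair thus pointed the same way for these genes, although the unpaired groups overlapped for Mthfd2. Without the block and relative to CXCR5lo PD-1lo cells, Mthfd2 differed by 0.45 (adjusted p = 0.334) and Slc7a6 by -0.7 (adjusted p = 0.111) in YFP-positive cells.

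**Figure D4:**
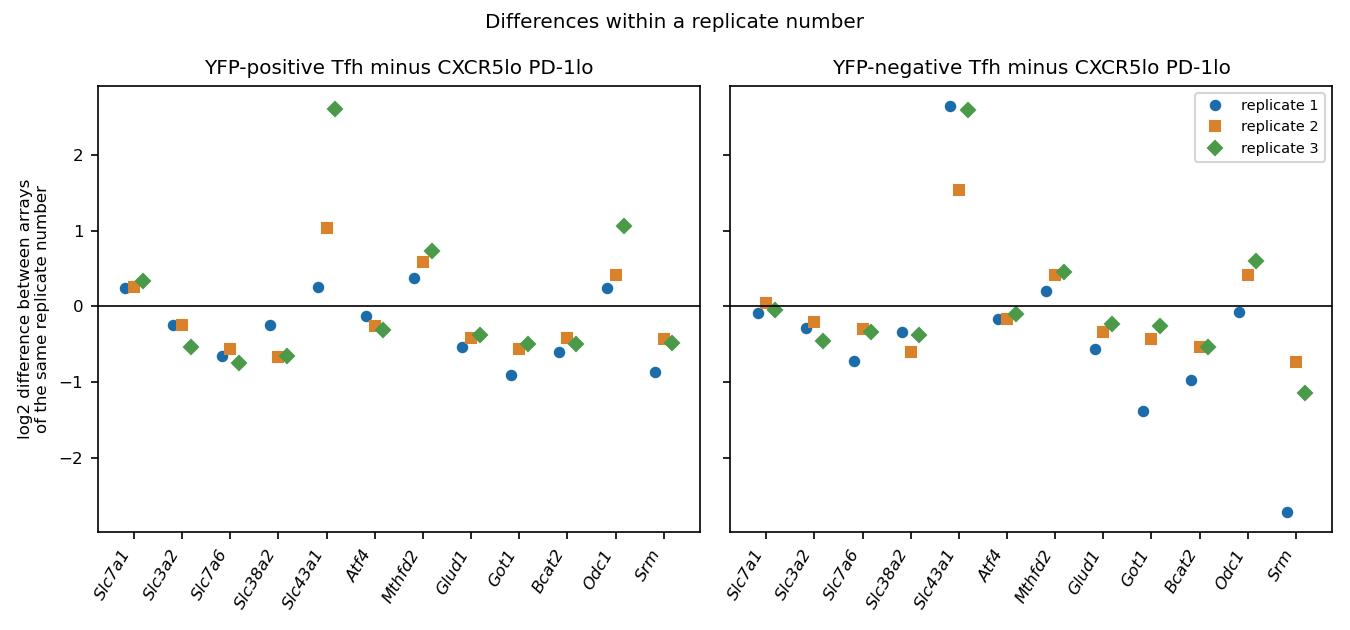
Log2 difference between arrays of the same replicate number (vertical) for 12 genes (horizontal), YFP-positive minus CXCR5lo PD-1lo (left) and YFP-negative minus CXCR5lo PD-1lo cells (right), 1 symbol for each of replicates 1, 2 and 3. Slc7a6, Slc3a2, Slc38a2, Glud1, Bcat2 and Srm lie below 0 and Mthfd2 above 0 for all 3 replicates in both panels, and the Srm difference of replicate 1 in YFP-negative cells is -2.71.

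Srm read 8.59, 9.87, 9.52 and 8.22 in YFP-negative cells, against 11.3, 10.6 and 10.67 in CXCR5lo PD-1lo cells. The groups did not overlap, and the day 10 replicates 1 and 4 were the lowest. Srm fell by 1.8 (SE 0.5, adjusted p = 0.0371), and by 1.43 (SE 0.37, adjusted p = 0.0326) with the replicate block. On day 7 arrays alone it differed by -1.16 (adjusted p = 0.0844), and without YFP-negative replicate 1, an array with markers of other cells, by -1.65 (adjusted p = 0.105). That fit still holds CXCR5lo PD-1lo replicate 1, where Lyz2 was 6.76. Leaving out single arrays ended the call in 5 of 7 fits, those without YFP-negative replicate 1 or 4 or without any of the CXCR5lo PD-1lo arrays. In YFP-positive cells, at 10.43, 10.17, 10.19 and 8.38, Srm differed by -1.06 (adjusted p = 0.224).

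Some markers listed for other cells differed between these groups, and others did not. Jchain was 8.45, 2.22, 3.06 and 2.21 in YFP-positive and 12.42, 2.51, 3.06 and 2.2 in YFP-negative cells, against 10.53, 7.91 and 7.72 in CXCR5lo PD-1lo cells. The mean of the 9 measured plasma cell markers, of which Tnfrsf17, Fkbp11 and Derl3 were under log2 4 on every array, ran from 5.23 to 6.05 in YFP-positive and 5.28 to 6.91 in YFP-negative cells, against 6.14 to 7.02 in CXCR5lo PD-1lo cells. Of these markers, Prdm1 and Irf4 were also higher in CXCR5lo PD-1lo cells, at 8.12, 5.48 and 4.24 and at 13.74, 14.04 and 13.7. The reporter groups lay between 2.15 and 2.75 and between 12.3 and 13.08. Sdc1 was not higher, at 2.2, 2.25 and 2.61, against 6.54, 2.26, 3.31 and 5.0 in YFP-negative cells. The mean of 6 CD8 T and NK cell markers ran from 2.89 to 3.06 and from 2.88 to 3.07 in YFP-positive and YFP-negative cells, against 3.56 to 3.86 in CXCR5lo PD-1lo cells. That mean rested mostly on Klrk1, at 6.01, 7.05 and 4.99 in CXCR5lo PD-1lo cells and between 2.1 and 2.14 in the reporter groups. Cd8b1 overlapped, and Cd8a, Ncr1 and Klra1 were under log2 4 on every array. The B cell marker Cd79b was 5.26, 5.3 and 5.36 in CXCR5lo PD-1lo cells and at most 2.81 in the reporter groups, while Ighm overlapped. Their part in the differences was not tested.

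YFP-positive and YFP-negative Tfh cells were compared to ask whether the level of the BCL6 reporter goes with these genes. None of the 35 was called (0.121% of all genes were), with 5 at an unadjusted p under 0.05, where 7.92% of all genes were. The 8 kept serine and one-carbon genes all had a positive difference, with a median of 0.73, beside a median of 0.17 for the 35 genes and 0 for all genes. Phgdh was 13.14, 12.76, 13.13 and 11.28 in YFP-positive cells, against 10.85, 11.85, 11.77 and 10.48 in YFP-negative cells. The groups overlapped through the day 10 array of YFP-positive cells, and the difference of 1.34 (SE 0.41) had an adjusted p of 0.222 in limma.

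With replicate number as a block, 1 of the 35 genes was called (2.70% of all genes), Mthfd1, the cytosolic enzyme that handles formate. Mthfd1 read 12.1, 11.78, 12.01 and 10.37 in YFP-positive cells, against 10.99, 10.67, 10.92 and 9.92 in YFP-negative cells. It was higher in YFP-positive cells in 4 of 4 pairs, by 1.11, 1.11, 1.09 and 0.45, although the pair of replicates 1 sets a day 7 array against a day 10 array. The difference was 0.94 (SE 0.17, adjusted p = 0.0458) with the block and 0.94 (SE 0.39, adjusted p = 0.469) without it. Of the 38 cell cycle genes, 38 had a positive difference, with a median of 2.77, and limma called 0 of them, with 35 at an unadjusted p under 0.05. Their part in the result was not tested.

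Bcl6yfp/+ and Bcl6+/+ Tfh cells were compared to see whether the reporter allele itself goes with a change. None of the 35 genes and none of all 9928 genes was called by limma (0% called), with 1 of the 35 and 287 of all genes (2.89%) at an unadjusted p under 0.05. The median difference was -0.30 for the 35 genes, beside -0.26 for all genes. Bcl6+/+ replicate 1, alone in its set, held the highest value of the 19 arrays for Asns (8.61), Slc3a2 (13.26), Atf5 (7.96), Trib3 (7.44) and Slc38a2 (13.09). Within set 6, which holds replicates 2 and 3 of both genotypes, the median difference was 0.01 for the 35 genes and 0 for all genes. All Bcl6yfp/+ arrays are from day 7 and 2 of 3 Bcl6+/+ arrays from day 10, so genotype and day overlap in part.

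Day 10 was compared with day 7 within the 3 groups that hold both days. Slc1a4, the carrier of alanine, serine and cysteine, was the only one of the 35 genes called (0.232% of all genes). It was 12.16 at day 10, against 8.87, 8.0 and 9.23 at day 7, in YFP-positive cells. In YFP-negative cells it was 10.76 and 10.69 at day 10, against 6.27 and 7.2 at day 7, and in Bcl6+/+ cells 8.23 and 9.77 at day 10, against 8.19 at day 7. Day 10 arrays lay above day 7 arrays in each group, by little for the first Bcl6+/+ array. The fitted rise was 2.95 (SE 0.51, adjusted p = 0.0239 in limma), and the call was kept in 6 of 11 fits that each left out 1 array. It ended without YFP-positive replicate 2 or 4 or without YFP-negative replicate 2, 3 or 4, with the lowest of these adjusted p-values at 0.051 and the highest at 0.423. It also ended with the set as a block (2.37, adjusted p = 0.186), without a filter on low values (adjusted p = 0.129), with the mean of the probe sets (2.42, adjusted p = 0.0604) and with only the 3 groups fitted (adjusted p = 0.159). The other probe sets of Slc1a4 differed from this pattern: they read 7.05 and 7.44 in YFP-positive replicate 4 and 4.33 and 5.43 in YFP-negative replicate 4, and lay between 2.04 and 2.39 on all other arrays, those of day 10 included.

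Other genes had no call, and their values are given for the groups side by side. Bcat1 was 5.67 at day 10, against 10.66 to 11.2 at day 7, in YFP-positive cells, and 6.84 and 4.93, against 9.94 and 9.35, in YFP-negative cells. In Bcl6+/+ cells it was 10.23 and 10.72 at day 10, against 10.3 at day 7. Day 10 minus day 7 was thus -5.27, -3.76 and 0.17 in these groups, and the fitted day term was -3.14 (SE 0.72, adjusted p = 0.0834). Slc43a1 had differences of 4.48 in YFP-positive, 1.94 in YFP-negative and -0.02 in Bcl6+/+ cells. Slc7a5 had -2.13, -1.14 and 0.11, Phgdh -1.73, -1.14 and 0.63, and Srm -1.88, -1.29 and 0.54 in the same order of groups. In the reporter groups, the differences of these genes were larger in size than in Bcl6+/+ cells.

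The difference between the day effects was tested by interaction terms added after these values were seen. Between Bcl6+/+ and YFP-positive cells, 0 of 9928 genes were called by limma, and 8 of the 35 and 360 of all genes had an unadjusted p under 0.05. Between Bcl6+/+ and YFP-negative cells, 1 of the 9928 genes was called (0.0101%), none of the 35. The test of whether the reporter difference itself changed between days called 0 of 9928 genes (0%), with 0 of the 35 and 94 of all genes at an unadjusted p under 0.05. The cell cycle mean moved along: it was 9.62 at day 10, against 11.53 to 12.22 at day 7, in YFP-positive cells, 8.2 and 7.23, against 9.99 and 10.33, in YFP-negative cells, and 10.74 and 9.9, against 10.08, in Bcl6+/+ cells. Day 10 rests on 1 YFP-positive array, and 1 of the YFP-negative day 10 arrays is replicate 1, which stood apart with markers of other cells. Its part in the values was not tested, and without that array and Bcl6+/+ replicate 1 the day term of Slc1a4 was 3.14 (adjusted p = 0.0119).

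**Figure D5:**
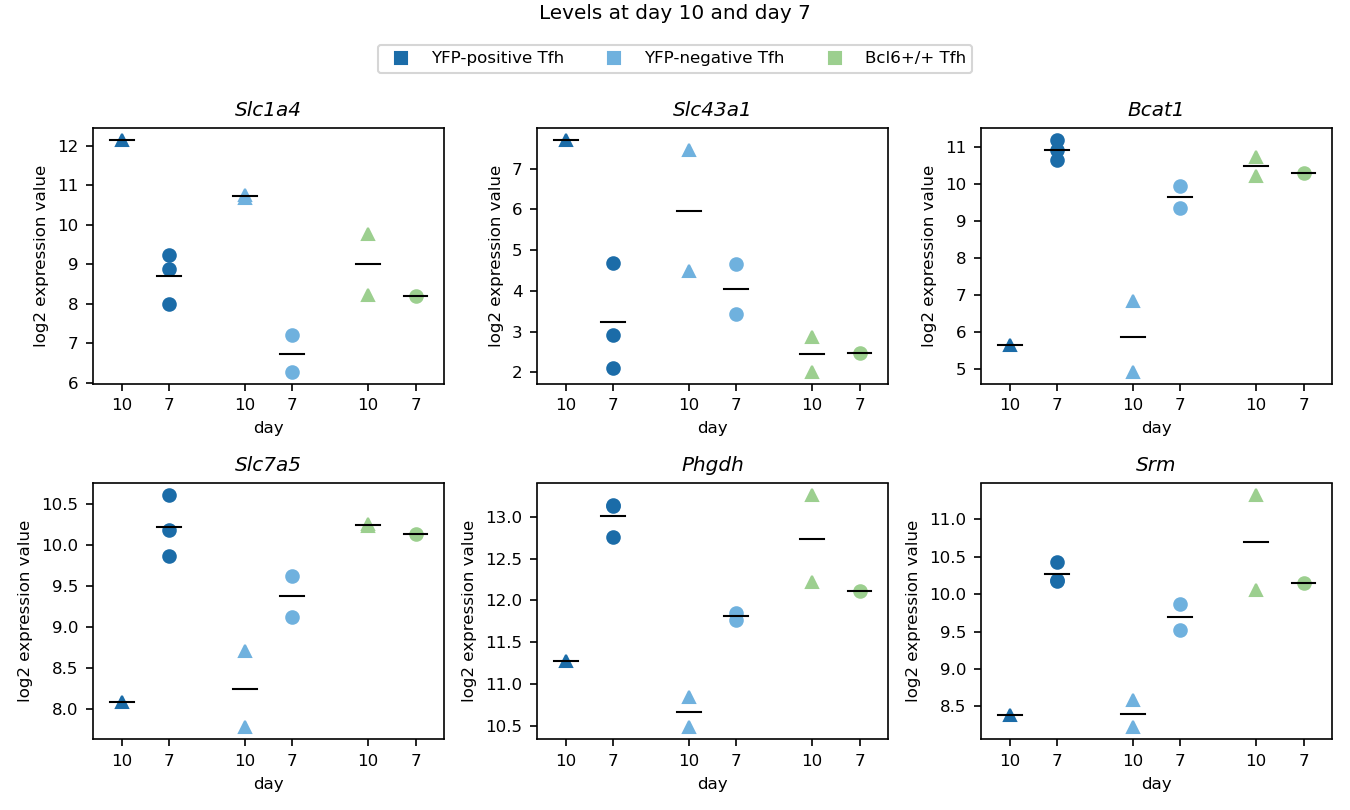
Log2 expression value (vertical) of Slc1a4, Slc43a1, Bcat1, Slc7a5, Phgdh and Srm by group and day (horizontal, day 10 left of day 7), 1 point for each array and a bar for the mean. In the reporter groups Slc1a4 lies higher and Bcat1 lower at day 10, while Bcat1 in Bcl6+/+ cells stays between 10.23 and 10.72.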

How the data were processed

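RNA from sorted cells was labelled as biotin cDNA and hybridised to Affymetrix arrays, per the labels' protocols. Each deposited file holds 1 log2 value per probe set, made by the authors with GCRMA per the submitters' processing notes (version and options: not given in the sources used here). Per the labels, RNA was isolated with TRIzol for the reporter-sorted, CXCR5lo PD-1lo and naive replicate 1 samples, and with TRIzol or an RNeasy kit for the others.

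Probe sets were named through GEO's platform annotation. Of 45101, 34945 carried 1 symbol, 932 several, 9160 none, and 64 were controls; 34754 matched the RefSeq table (GRCm38.p6) by Entrez identifier and 0 symbols were updated. Arrays whose sorted values differed by under 0.06 on average were taken as 1 set.

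Group means were fitted over all 19 arrays and 9928 genes with limma 3.58.1 in R 4.3.3, and p-values adjusted by Benjamini-Hochberg over all genes within a comparison; a gene was called under 0.05. Day was added to group. The fit was tested on simulated data with independent noise and known changes. Those data had no sets, scale shift or linked arrays, so the test does not cover these features. Errors are SE of fold changes. Same-numbered arrays deviated together in every pair (correlations 0.27 to 0.87), so the numbers were taken as pairs, although no label states a shared source and same-numbered reporter and CXCR5lo PD-1lo arrays also share a set, and blocked values stand beside results whose call they change. Values per array are given for the 3 called genes with the largest change in each role against naive cells, for genes called between the immunized groups, and for genes chosen later because they varied between arrays or days. Further lists name the 2 highest and 2 lowest called genes. Members and lists were chosen with earlier results of these data known. Alternatives were other normalizations, filters, probe set means, blocks, subsets of arrays and leaving out each array. Figures were drawn with matplotlib 3.10.9.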

Additional observations from a re-analysis of the deposited data

Results flagged for a closer look

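In groups of 4 arrays, the highest or lowest value was compared with the rest by its gap over the range, against Dixon's critical value. Of 70 gene and group pairs, 5 passed, all in YFP-positive cells, where chance gives about 1 in 20. In YFP-positive replicate 4, the day 10 array, Asns was 3.05 while the others ran from 5.93 to 6.33, Bcat1 was 5.67 while the others ran from 10.66 to 11.2, and Srm was 8.38 while the others ran from 10.17 to 10.43. In YFP-positive replicate 3, Mtor was 10.9 while the others ran from 10.77 to 10.79. In YFP-positive replicate 1, Tsc2 was 7.43 while the others ran from 8.46 to 8.56. The cause was not tested.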

How the results depend on the processing

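Of 565 values of single genes under alternatives, 394 kept direction and call, 170 kept direction but lost the call and 1 turned: Slc1a5 in Bcl6+/+ minus naive, at -0.02 with the set as a block. The following are counts of called genes. The pairing changed no call between the genotypes. With the replicate block, it gave 1, against 0 without it, for YFP-positive minus YFP-negative, 10 against 0 for YFP-positive minus CXCR5lo PD-1lo and 8 against 1 for YFP-negative minus CXCR5lo PD-1lo. In the same order, the block called 2.70%, 37.2% and 24.0% of all genes, against 0.121%, 10.6% and 6.53% without it. With the normalization set as a block the same 3 comparisons had 5, 14 and 9, YFP-positive minus naive 14 (main 5), YFP-negative minus naive 15 (main 7), Bcl6+/+ minus naive 7 (main 13) and day 0 (main 1). No set holds both CXCR5lo PD-1lo and naive arrays, so that fit links them only through day 10 reporter arrays. Quantile normalization gave 12 for YFP-positive and 12 for YFP-negative minus naive, and 3 and 2 for YFP-positive and YFP-negative minus CXCR5lo PD-1lo. Without a filter on low values, YFP-negative minus naive had 4, YFP-negative minus CXCR5lo PD-1lo 0 and day 0. The mean of probe sets, and the groups with both days alone, each left 0 for day. With only the arrays of the compared groups, CXCR5lo PD-1lo minus naive had 2 (main 6), Bcl6yfp/+ minus naive 5 (main 9) and YFP-negative minus CXCR5lo PD-1lo 0. That last comparison also had 0 with day as an added term, on day 7 arrays alone, and without YFP-negative replicate 1 and Bcl6+/+ replicate 1. On day 7 arrays alone, YFP-positive minus naive had 12 and Bcl6+/+ minus naive 5. Leaving out each array in turn gave 0 to 3 for YFP-positive minus YFP-negative, 0 to 1 for YFP-positive and 0 to 1 for YFP-negative minus CXCR5lo PD-1lo, 0 to 0 for the genotypes, 4 to 7 for YFP-positive, 3 to 6 for YFP-negative, 2 to 5 for CXCR5lo PD-1lo, 4 to 14 for Bcl6yfp/+ and 7 to 12 for Bcl6+/+ minus naive, 0 to 7 for day and 0 to 0 for its interaction with the reporter. The day 7 and 2-array settings were chosen after seeing the data, and the cause of these changes was not tested.

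With 2 naive arrays in different sets, no fit separates set from group fully. Signals near log2 2 (naive Bcat1, Asns and Slc43a1, and Trib3 in most immunized arrays) are limited by the floor, so their fold changes depend on it.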
